A study of Mus musculus with 22 samples.

Results

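The nuclear genes for subunits of mitochondrial complex I were followed across arterial smooth muscle cells from 7 mouse tissues. They were taken as the protein-coding genes whose symbol is Nduf, then a, b, c, s or v, then a number, which gave 37 of the 28099 genes of the table. All 37 were above 0 in all 22 libraries, the lowest value standing for 9 reads of Ndufb4, and all 37 passed the filter on low signal. By their place in the enzyme they fall into 7 core subunits, 9 accessory subunits of the matrix arm, 9 of the proximal membrane arm, 11 of the distal membrane arm, and Ndufa4, which is now counted as a subunit of complex IV and is described apart. The table held 16 other symbols that start with Nduf, among them assembly factors, pseudogenes, Ndufab1 and Ndufa4l2, which the symbol pattern left out.

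Complex I is the entry point of the mitochondrial respiratory chain: its matrix arm takes electrons from NADH through a flavin and a chain of iron-sulfur clusters to ubiquinone, and its membrane arm pumps protons out of the matrix. The core subunits carry out that chemistry and are shared with bacteria, and the accessory subunits, which are mostly small proteins, are needed for assembly and stability in mammals. The hydrophobic core of the membrane arm is encoded by mitochondrial DNA, and the table held 0 genes of the mitochondrial chromosome. Arterial smooth muscle makes ATP for contraction from both glycolysis and respiration, and its respiratory chain is also studied as an oxygen sensor.

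RNA was measured in cells that flow cytometry had sorted as arterial smooth muscle cells. Intestine gave 4 libraries, and the stomach, bladder, kidney, lung, heart and aorta gave 3 each. The mice carried Cspg4-Dre, Acta2-CreERT and the R26-GFP reporter, except that heart came from mice with Cspg4-DreERT, so heart and that allele cannot be told apart. Acta2 is a smooth muscle gene and Cspg4 is expressed in mural cells, and cells are marked where both recombinases have acted. Every group was given tamoxifen on 3 days (0.75 mg for each 10 g of mouse), and none was untreated. At most 10 ng of RNA went into each SMART-Seq v4 library, which copies full-length transcripts from small inputs. Whether the libraries of a tissue stem from different animals is not in the labels, so the p-values reflect only how far these samples spread, and that spread may be technical.

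Values are the deposited signal, whole numbers scaled per library, and the signal that 1 read is worth was recovered from their spacing. It was 9.42, 4.05 and 3.30 in aorta, 8.09 in heart 3 and between 0.422 and 1.34 in the other 18 libraries. Rebuilt depth was 629456, 1540366 and 1927765 reads in aorta, 817157 in heart 3 and 4389363 to 12708422 in the other 18. All 7 smooth muscle markers were detected in every tissue, with a summed signal of 55974 to 83353 in aorta, 20998 to 85973 in heart and 11512 to 14150 in intestine. The 9 skeletal muscle markers summed to 489 to 23983 in aorta, the highest value in aorta 3, and the 12 cardiomyocyte markers to 217 to 7574 in aorta and 4031 to 6373 in heart. Of the cardiomyocyte markers, Myl2 and Nppa were at 0 in all 3 aorta libraries, while Myl3, Actc1, Mb and Actn2 stood at 2484, 2256, 1407 and 1133 in aorta 3, each above every heart library. The 10 brown adipocyte markers summed to 1349 to 3137 in aorta, where aorta 2 was the highest of the 22 libraries, and to 1458 to 2160 in heart. Fabp4 made up most of that sum in both tissues, Cidea stood at 188, 272 and 182 in aorta, and Ucp1 was at 0 in all 6 libraries. Fibroblast markers summed to 23198 to 56881 in aorta and 13000 to 15360 in intestine, endothelial markers to 595 to 716 in aorta and 3994 to 5177 in heart, and immune markers to at most 2813, in bladder. The fibroblast markers did not move together. Dcn, Lum and Col1a1 were higher in every aorta library than in intestine. Pdgfra was at 330, 146 and 46 in aorta against 4046 to 5130 in intestine, and Dpt at 1262, 665 and 538 against 1203 to 1565. The nephron markers were highest in kidney, at 6252 to 16513, and the gut epithelium markers in stomach and intestine, at 12994 to 17633 and 4770 to 7884. The 8 lung epithelium markers summed to 3667 to 5235 in lung and 125 to 2066 in aorta. In aorta 2 Hopx stood at 1066 and Sftpc at 794. The part of these other cells in the levels of complex I genes was not tested, and in bulk RNA fewer cells of a type and less RNA per cell cannot be told apart.

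Complex I genes were abundant in every library. Their summed signal was 0.675%, 0.741% and 0.503% of all signal in aorta, 0.538%, 0.419% and 0.645% in heart, 0.463%, 0.389% and 0.453% in lung, 0.286%, 0.405% and 0.353% in kidney, 0.206%, 0.333% and 0.382% in bladder, 0.378%, 0.354% and 0.320% in stomach, and 0.267%, 0.256%, 0.272% and 0.346% in intestine. The aorta share was thus 0.640% ± 0.123 (SD, n = 3) and the intestine share 0.285% ± 0.0410 (SD, n = 4). The median complex I gene stood at a percentile of 87.1 to 91.2 among all tested genes in aorta and of 66.7 to 75.9 in intestine. By tissue mean, 32 of the 37 genes were highest in aorta, 4 in heart and 1 in stomach, and 34 were lowest in intestine and 3 in bladder.

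**Figure D1:**
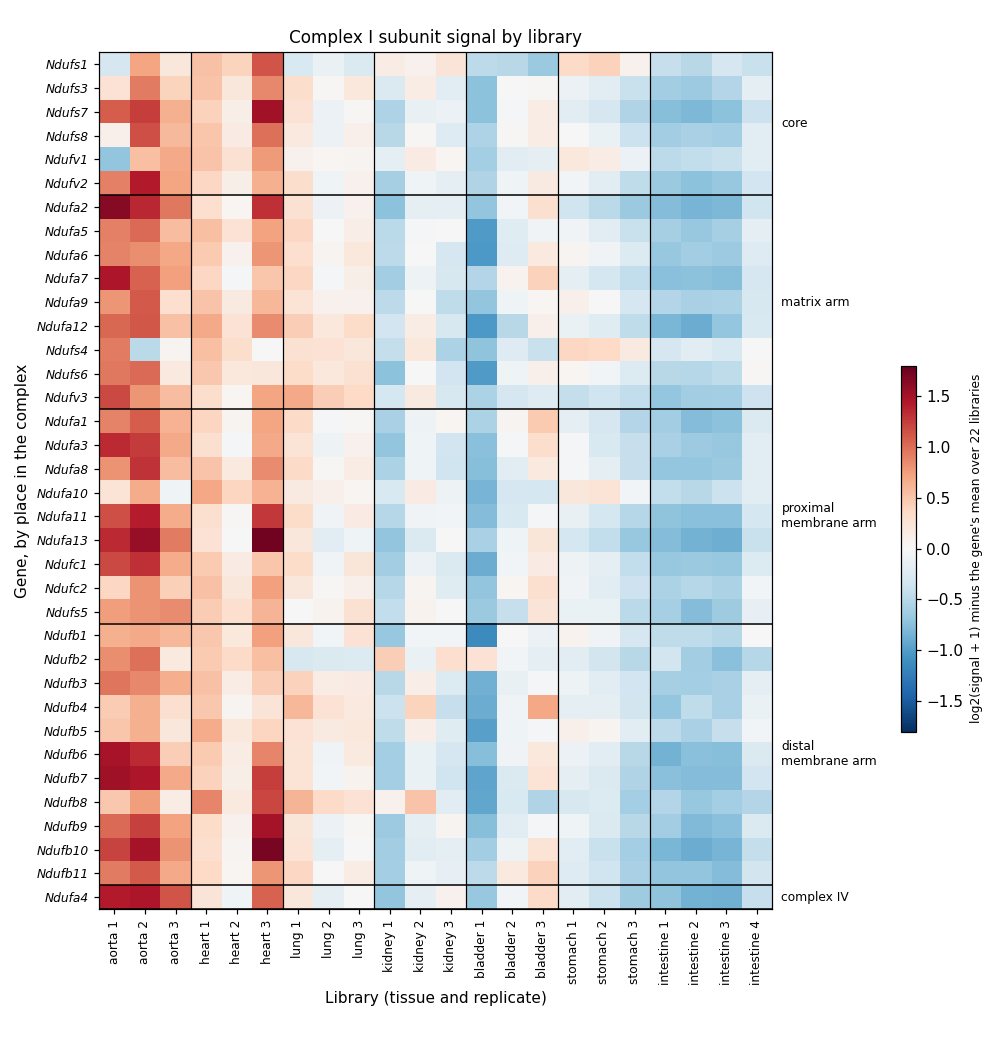
Signal of 36 of the 37 genes (rows, by place in the complex) in the 22 libraries (columns, by tissue), as log2(signal + 1) minus the gene's mean over the libraries. Most genes are highest in aorta or heart 3 and lowest in bladder 1 or in intestine; by tissue mean 32 of all 37 are highest in aorta and 34 lowest in intestine.

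Of the 37 genes, 34 differed across the 7 tissues by limma's F test at a Benjamini-Hochberg adjusted p under 0.05, against 59.6% of all 16917 tested genes. Across the 6 tissues other than aorta 32 did, against 60.9% of all genes. The genes that did not pass over 7 tissues were Ndufb4 (adjusted p = 0.412), Ndufs4 (adjusted p = 0.129) and Ndufv1 (adjusted p = 0.0580).

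Complex I genes were higher in aorta and lower in intestine. Against the mean of the other 6 tissues, 31 of 37 were higher in aorta and 0 lower, where 9.15% of all genes were called higher. The median log2 fold change of the 37 was 0.94, against -1.04 for all genes. The median of all genes was -0.72 with a pseudocount of 5, where the 37 had 0.93, and -0.40 by edgeR, where they had 1.07. In intestine 30 of 37 were lower and 0 higher, where 9.97% of all genes were called lower, with a median of -0.68 for the 37 and 0.34 for all genes. The 6 genes not called in aorta were Ndufs1, Ndufv1, Ndufs4, Ndufa10, Ndufb4 and Ndufb8. The 7 not called in intestine were Ndufv1, Ndufs4, Ndufs5, Ndufs6, Ndufb1, Ndufb4 and Ndufb5. Counting reads in place of signal, edgeR's quasi-likelihood test called 33 higher in aorta, against 13.4% of all genes, and 32 lower in intestine, against 10.9%. With limma's array weights, which gave the aorta libraries and heart 3 weights of 0.0746 to 0.204, the aorta count was 6 of 37, against 2.23% of all genes.

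Genes of every arm were called in both contrasts. In aorta 5 of 7 core, 8 of 9 matrix arm, 8 of 9 proximal and 9 of 11 distal subunits were higher, with median log2 fold changes of 0.69, 0.94, 1.00 and 0.94. In intestine 6, 7, 8 and 8 of them were lower, with medians of -0.60, -0.67, -0.70 and -0.71. In heart, where 6.03% of all genes were called higher, 6 of 7 core subunits were, and 0 of 9, 1 of 9 and 2 of 11 accessory subunits, with medians of 0.61, 0.46, 0.55 and 0.53. Without heart 3 limma called 0 of 7 core subunits in heart, 2 at an unadjusted p under 0.05, and their log2 fold changes were 0.26 to 0.55. The difference between these groups of subunits was not tested.

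The core subunits hold the redox centers. Ndufv1, which binds NADH and the flavin (mm39 chromosome 19, 4057384 to 4062806), had signal of 763, 1832 and 2008 in aorta, 1793, 1512 and 2144 in heart, 1325, 1286 and 1303 in lung, 1114, 1385 and 1283 in kidney, 822, 1102 and 1124 in bladder, 1431, 1380 and 1168 in stomach, and 909, 926, 951 and 1091 in intestine. Its value in aorta 1 was the lowest of the 22, while aorta 2 and aorta 3 were near the top. It differed in heart by a log2 fold change of 0.58 ± 0.20 (SE, adjusted p = 0.0481), and its value in aorta was 0.18 ± 0.20 (SE, adjusted p = 0.473). Ndufv2, its iron-sulfur partner (chromosome 17, 66385633 to 66408554), had signal of 1828, 2610 and 1599 in aorta, 1262, 1042 and 1513 in heart, 1214, 922 and 1028 in lung, 642, 923 and 859 in kidney, 665, 924 and 1093 in bladder, 936, 841 and 708 in stomach, and 609, 582, 605 and 764 in intestine. All 3 aorta libraries were above all 19 others. The log2 fold change was 1.15 ± 0.18 (SE, adjusted p = 5.23e-05) in aorta and -0.75 ± 0.16 (SE, adjusted p = 0.00160) in intestine.

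Ndufs1, the largest subunit, which carries several iron-sulfur clusters (chromosome 1, 63182755 to 63215992), had signal of 999, 2002 and 1417 in aorta, 1765, 1614 and 2678 in heart, 1019, 1127 and 1020 in lung, 1343, 1292 and 1435 in kidney, 881, 866 and 771 in bladder, 1560, 1630 and 1290 in stomach, and 916, 868, 996 and 932 in intestine. The 3 bladder libraries lay below every library of aorta, heart, lung, kidney and stomach and overlapped those of intestine. Ndufs1 was higher in heart, with a log2 fold change of 0.77 ± 0.16 (SE, adjusted p = 0.00300), and lower in bladder, at -0.66 ± 0.16 (SE, adjusted p = 0.00819), and in intestine, at -0.49 ± 0.14 (SE, adjusted p = 0.0169). Its fold change in aorta did not pass, at 0.22 ± 0.16 (SE, adjusted p = 0.269).

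Ndufs7, which lies at the ubiquinone site (chromosome 10, 80084955 to 80092628), had signal of 1894, 2112 and 1381 in aorta, 1180, 954 and 2532 in heart, 1060, 826 and 903 in lung, 603, 806 and 824 in kidney, 531, 863 and 974 in bladder, 768, 722 and 611 in stomach, and 522, 508, 530 and 681 in intestine. Every aorta library was above all libraries except heart 3, which was the highest. Its log2 fold change was 1.12 ± 0.23 (SE, adjusted p = 0.000697) in aorta, 0.75 ± 0.23 (SE, adjusted p = 0.0283) in heart and -0.82 ± 0.20 (SE, adjusted p = 0.00564) in intestine. Without heart 3 the value in heart was 0.33 ± 0.21 (SE, adjusted p = 0.3999).

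Ndufs3, a scaffold of the matrix arm (chromosome 2, 90724978 to 90735171), had signal of 584, 936 and 647 in aorta, 700, 564 and 890 in heart, 610, 497 and 558 in lung, 406, 535 and 429 in kidney, 292, 488 and 496 in bladder, 454, 428 and 370 in stomach, and 315, 310, 340 and 436 in intestine. Ndufs8, which carries iron-sulfur clusters next to the membrane (chromosome 19, 3958863 to 3962774), had signal of 867, 1812 and 1225 in aorta, 1156, 905 and 1618 in heart, 918, 759 and 871 in lung, 574, 826 and 694 in kidney, 555, 826 and 893 in bladder, 809, 749 and 624 in stomach, and 526, 542, 530 and 711 in intestine. For both genes intestine lay below all heart and aorta libraries, and aorta 1 was the lowest of the 3 aorta libraries. Ndufs3 differed by 0.59 ± 0.20 (SE, adjusted p = 0.0189) in aorta, 0.59 ± 0.20 (SE, adjusted p = 0.0457) in heart and -0.60 ± 0.18 (SE, adjusted p = 0.0168) in intestine. Ndufs8 differed by 0.68 ± 0.21 (SE, adjusted p = 0.0104) in aorta, 0.61 ± 0.21 (SE, adjusted p = 0.0450) in heart and -0.62 ± 0.18 (SE, adjusted p = 0.0176) in intestine. Without heart 3 the heart value was 0.39 ± 0.23 (SE, adjusted p = 0.349) for Ndufs8 and 0.42 ± 0.22 (SE, adjusted p = 0.293) for Ndufs3.

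In the accessory matrix arm, Ndufa2, a small protein with a thioredoxin-like fold (chromosome 18, 36875385 to 36877610), had the highest signal per kilobase of exon of the 37 genes, at 993. Its signal was 1536, 1269 and 954 in aorta, 610, 506 and 1222 in heart, 597, 456 and 520 in lung, 294, 435 and 441 in kidney, 302, 476 and 601 in bladder, 386, 352 and 311 in stomach, and 287, 275, 280 and 384 in intestine. The aorta libraries and heart 3 stood at 954 and above, and no other library passed 610. The log2 fold change was 1.498 ± 0.243 (SE, adjusted p = 9.14e-05) in aorta and -0.85 ± 0.22 (SE, adjusted p = 0.00668) in intestine. Ndufv3, an accessory subunit beside Ndufv1 and Ndufv2 (chromosome 17, 31739089 to 31750305), had signal of 2025, 1548 and 1308 in aorta, 1112, 908 and 1456 in heart, 1432, 1207 and 1146 in lung, 715, 999 and 731 in kidney, 597, 722 and 759 in bladder, 660, 691 and 657 in stomach, and 549, 574, 583 and 688 in intestine. The 3 lung libraries were above every library of kidney, bladder, stomach and intestine. Ndufv3 was the only member called in lung, at 0.55 ± 0.16 (SE, adjusted p = 0.0399), and the only one called in stomach, where it was lower, at -0.51 ± 0.16 (SE, adjusted p = 0.0274). It was also higher in aorta, by 0.95 ± 0.16 (SE, adjusted p = 0.000114), and lower in intestine, at -0.71 ± 0.14 (SE, adjusted p = 0.00106). The other matrix arm subunits called in aorta, Ndufa5, Ndufa6, Ndufa7, Ndufa9, Ndufa12 and Ndufs6, had log2 fold changes of 0.81 to 1.23. Ndufs4, needed for late assembly of the matrix arm, did not pass in any contrast: its aorta libraries were at 810, 304 and 439, and its highest tissue mean was that of stomach, 523 ± 42.9 (SD, n = 3).

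In the proximal membrane arm, Ndufa1, a small membrane protein encoded on the X chromosome (chromosome X, 36451241 to 36454816), had signal of 697, 803 and 581 in aorta, 491, 387 and 615 in heart, 475, 367 and 380 in lung, 249, 352 and 385 in kidney, 252, 390 and 520 in bladder, 331, 305 and 261 in stomach, and 242, 219, 224 and 313 in intestine. Ndufa8, which has twin cysteine motifs and faces the intermembrane space (chromosome 2, 35926338 to 35939418), had signal of 1309, 1840 and 1100 in aorta, 1066, 843 and 1351 in heart, 953, 759 and 816 in lung, 505, 706 and 583 in kidney, 439, 655 and 840 in bladder, 727, 660 and 558 in stomach, and 460, 460, 469 and 646 in intestine. Per kilobase of exon these 2 genes followed Ndufa2, at 959 and 937. For both genes the aorta libraries were above all libraries except heart 3, which lay within their range. Ndufa1 differed by 0.98 ± 0.22 (SE, adjusted p = 0.00139) in aorta and -0.73 ± 0.20 (SE, adjusted p = 0.00904) in intestine. Ndufa8 differed by 1.00 ± 0.20 (SE, adjusted p = 0.000517) in aorta and -0.70 ± 0.18 (SE, adjusted p = 0.00657) in intestine. Ndufs5, another twin cysteine protein (chromosome 4, 123606503 to 123611995), was among the 3 genes with the fewest reads per exonic base, with signal of 170, 178 and 182 in aorta, 139, 125 and 154 in heart, 101, 105 and 122 in lung, 74, 105 and 101 in kidney, 63, 75 and 118 in bladder, 93, 93 and 72 in stomach, and 66, 58, 64 and 91 in intestine. Its aorta libraries were above all others, with a log2 fold change of 0.91 ± 0.28 (SE, adjusted p = 0.0121). Ndufa13, also known as GRIM-19, reached 2071 in heart 3 and 1583, 1844 and 1186 in aorta, and its aorta fold change was 1.45 ± 0.27 (SE, adjusted p = 0.000282). Ndufa10, related to nucleoside kinases, was the one proximal subunit called in heart, at 0.64 ± 0.15 (SE, adjusted p = 0.00702), and in bladder, at -0.59 ± 0.15 (SE, adjusted p = 0.0117).

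In the distal membrane arm, Ndufb10, an intermembrane space subunit with disulfide bonds (chromosome 17, 24941034 to 24943452), had signal of 1931, 2347 and 1453 in aorta, 1026, 859 and 2710 in heart, 989, 733 and 827 in lung, 541, 731 and 740 in kidney, 541, 784 and 990 in bladder, 719, 632 and 543 in stomach, and 468, 449, 464 and 617 in intestine. Heart 3 was the highest library, while heart 1 and heart 2 lay below all 3 aorta libraries. It had the largest fall in intestine, -0.91 ± 0.23 (SE, adjusted p = 0.00569), and was higher in aorta, by 1.33 ± 0.25 (SE, adjusted p = 0.000409), and in heart, by 0.76 ± 0.25 (SE, adjusted p = 0.0448), which was 0.25 ± 0.22 (SE, adjusted p = 0.581) without heart 3. Ndufb8, a membrane subunit that is widely used as an antibody marker of assembled complex I (chromosome 19, 44537011 to 44543879), had signal of 603, 726 and 472 in aorta, 795, 486 and 995 in heart, 657, 548 and 514 in lung, 453, 612 and 372 in kidney, 224, 357 and 295 in bladder, 353, 364 and 281 in stomach, and 299, 269, 280 and 299 in intestine. It had the largest rise in heart, 0.85 ± 0.21 (SE, adjusted p = 0.00990), and the largest fall in bladder, -0.71 ± 0.21 (SE, adjusted p = 0.0286). Its heart libraries were above all bladder, stomach and intestine libraries.

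Ndufb4, Ndufb2 and Ndufb5, all of the distal arm, had the lowest signal per kilobase of exon, and Ndufb4 and Ndufb2 were also among the 3 with the fewest reads per exonic base. Ndufb4 (chromosome 16, 37467532 to 37474815) had signal of 85, 97 and 76 in aorta, 87, 64 and 73 in heart, 94, 74 and 70 in lung, 47, 82 and 46 in kidney, 33, 59 and 101 in bladder, 55, 55 and 49 in stomach, and 38, 45, 41 and 57 in intestine, or 33.9 per kilobase of exon. Ndufb2 (chromosome 6, 39569508 to 39580316) had signal of 330, 365 and 208 in aorta, 254, 234 and 267 in heart, 150, 153 and 154 in lung, 249, 169 and 226 in kidney, 221, 178 and 162 in bladder, 161, 146 and 130 in stomach, and 146, 118, 109 and 128 in intestine, or 34.4 per kilobase. Ndufb5 (chromosome 3, 32791139 to 32805715) had signal of 754, 831 and 614 in aorta, 849, 611 and 696 in heart, 640, 595 and 608 in lung, 388, 581 and 457 in kidney, 270, 507 and 522 in bladder, 569, 549 and 463 in stomach, and 385, 357, 400 and 516 in intestine, or 111 per kilobase. For Ndufb4 the aorta libraries lay above those of stomach and intestine and overlapped the other 4 tissues, and it was called in no contrast. Ndufb2 differed by 0.75 ± 0.23 (SE, adjusted p = 0.0108) in aorta and -0.68 ± 0.20 (SE, adjusted p = 0.0185) in intestine, and Ndufb5 by 0.50 ± 0.20 (SE, adjusted p = 0.0392) in aorta. These levels divide by the union of all annotated exons, and with the length of the principal transcript Ndufb5 stood at 512 per kilobase, the highest was Ndufb10 at 1310, and the lowest were Ndufb2 at 44.3, Ndufb4 at 66.9 and Ndufs5 at 157.

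Ndufa4, the complex IV subunit of the set (chromosome 6, 11900291 to 11907496), had signal of 1639, 1666 and 1334 in aorta, 716, 578 and 1270 in heart, 700, 536 and 604 in lung, 372, 542 and 644 in kidney, 379, 589 and 769 in bladder, 533, 463 and 388 in stomach, and 367, 335, 334 and 457 in intestine. All 3 aorta libraries were above every other library, and its log2 fold change in aorta, 1.52 ± 0.23 (SE, adjusted p = 4.28e-05), was the largest of the 37 genes. In intestine it was -0.87 ± 0.20 (SE, adjusted p = 0.00367). Ndufa4l2 and Ndufab1 are related genes outside the symbol pattern. Ndufa4l2, a paralog of Ndufa4 known as a hypoxia-inducible gene and a marker of mural cells, had signal of 933, 1865 and 287 in aorta, 1462, 1271 and 4627 in heart, 1034, 812 and 734 in lung, 738, 888 and 1127 in kidney, 801, 919 and 879 in bladder, 381, 312 and 393 in stomach, and 439, 483, 454 and 546 in intestine. Ndufab1, the mitochondrial acyl carrier protein that also sits in complex I, had signal of 292, 543 and 347 in aorta, 438, 434 and 275 in heart, 263, 306 and 276 in lung, 417, 376 and 336 in kidney, 210, 288 and 251 in bladder, 407, 482 and 343 in stomach, and 236, 266, 304 and 291 in intestine. Heart 3 was highest for Ndufa4l2 and aorta 2 for Ndufab1, whose tissue mean was highest in stomach.

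The signal of complex I genes went with what 1 read was worth in a library. Over the 18 deeper libraries, depth ranged 2.90-fold and the summed reads of the 37 genes 2.21-fold, from 16749 to 36929. Bladder and kidney 3 held the lowest sums, at 16749 to 20534, and without those 4 libraries the sums lay between 27962 and 36929, a range of 1.32-fold for a depth range of 2.11-fold. That set of 14 libraries was chosen after the values were seen. Leaving out the libraries with the lowest sums narrows the range of reads by itself. Over all 18 the median gene ranged 2.366-fold in reads and 2.374-fold in signal. Reads ranged less than signal for 23 of 37 genes there. Within the 14 the median gene ranged 1.355-fold in reads and 2.24-fold in signal, and for 35 of 37 genes reads ranged less than signal. Ndufa13 is an example, with reads of 168, 455 and 359 in aorta, 850, 811 and 256 in heart, 769, 814 and 767 in lung, 829, 789 and 549 in kidney, 532, 595 and 541 in bladder, 750, 807 and 834 in stomach, and 761, 801, 804 and 814 in intestine. The 14 libraries thus held 750 to 850 reads of it, while its signal there ranged 2.20-fold. Ndufa4 likewise had 748 to 836 reads in them. Ndufs1, by contrast, had 1089 to 2945 reads in the same 14 libraries. Over all 18 the reads of Ndufs1 ranged 5.12-fold, those of Ndufa13 1.598-fold and those of Ndufa4 1.713-fold. Ndufs1 had reads of 106, 494 and 429 in aorta, 2014, 2111 and 331 in heart, 1089, 1699 and 1322 in lung, 2945, 1958 and 1266 in kidney, 1135, 876 and 575 in bladder, 2344, 2884 and 2780 in stomach, and 1931, 2010, 2362 and 1615 in intestine.

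Read density per base was high for most of the set. On the length of the principal transcript, 33 of 37 genes reached 0.5 reads per base in some library, against 27.4% of 16601 tested genes with a length, and the 4 that did not were Ndufb2, Ndufb4, Ndufc1 and Ndufs5. On the union of exons 23 of 37 did, against 16.8%. The highest density was 1.73 reads per base, in Ndufa7. Among the 4551 genes of like density, 23.2% were called higher in aorta and 24.9% lower in intestine, where 28 of the 33 complex I genes were called in each. Among the 14 genes that stayed under 0.5 reads per base of the union of exons in every library, tested with 13815 genes of that kind, 10 were higher in aorta, against 5.39%, and 9 lower in intestine, against 5.31%. Of these 14 only Ndufb2, Ndufb4, Ndufc1 and Ndufs5 also stayed under it on the principal transcript. Ndufa7, at 1.73 there, is among the 14, so these counts do not describe genes of low density. The cause of the even reads in 14 of the deeper libraries was not tested.

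**Figure D2:**
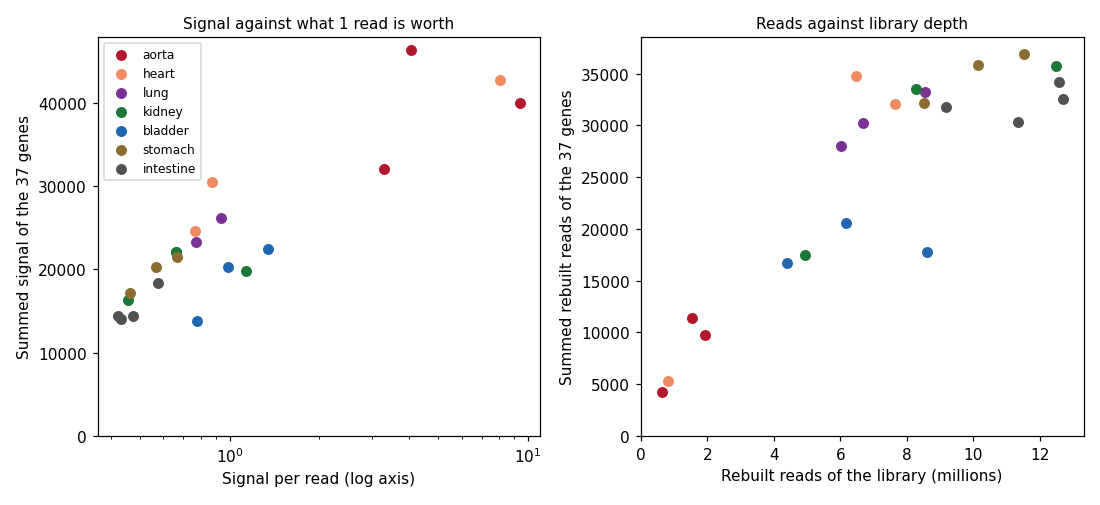
Left: summed signal of the 37 genes against the signal that 1 read is worth (log axis), a point per library, colored by tissue. Right: summed rebuilt reads of the same genes against library depth in reads. Signal is highest in the 3 aorta libraries and heart 3, where 1 read is worth most. Reads lie between 27962 and 36929 in 14 of the deeper libraries, a set chosen after the values were seen. The bladder libraries are lower, at 17741, 20534 and 16749, and so is kidney 3, at 17430.

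The same held between replicates of a tissue. Intestine 4, where 1 read was worth 0.577 against 0.422 to 0.474 in the other 3, was the highest intestine library for 34 of 37 genes. Stomach 1, at 0.665, was highest for 33 and stomach 3, at 0.464, lowest for all 37. Lung 1, at 0.935, was highest for 33, bladder 3, at 1.34, for 30, and heart 3 for 31. Kidney and aorta did not follow: kidney 3 had the highest worth of a read but 25 genes were highest in kidney 2, and aorta 1, at 9.42, was highest for 9 while aorta 2 was highest for 26. No share over all genes is given beside these counts, whereas the slopes within tissues described below are set beside all genes.

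With the log2 of signal per read added to the model as a covariate, 5 of 37 genes differed across the 7 tissues, where 47.1% of all genes did. The 5 were Ndufs1 (adjusted p = 0.00182), Ndufv3 (adjusted p = 0.00145), Ndufb8 (adjusted p = 0.00636), Ndufa10 (adjusted p = 0.00770) and Ndufa12 (adjusted p = 0.0485). Across the 6 tissues other than aorta 15 of 37 did, against 64.8% of all genes. In aorta limma called 0 of 37, 4 of them at an unadjusted p under 0.05, against 9.5% of all genes called higher. The median there was 0.37 for the 37 and -0.17 for all genes. In intestine 2 were lower, Ndufv2 at -0.53 ± 0.17 (SE, adjusted p = 0.0435) and Ndufv3 at -0.45 ± 0.14 (SE, adjusted p = 0.0346), against 9.62% of all genes, with a median of -0.40 for the 37 and -0.14 for all genes. All 3 aorta libraries have a higher signal per read than the 18 deeper libraries and only heart spans both ranges, so aorta and signal per read cannot be fully told apart. This fit was added after the data were seen.

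The covariate's own slope, the log2 change in signal per doubling of signal per read within tissues, was above 0 for all 37 genes over 22 libraries, with a median of 0.19 against -0.22 for all genes. It was called positive for 10, against 2.37% of all genes, and was largest for Ndufa13, at 0.48, and Ndufb10, at 0.44. Over the 18 deeper libraries the median was 0.54 against -0.21, 36 of 37 slopes were above 0 and 6 were called, against 1.45% of all genes. Those 6 were Ndufa4 at 0.80, Ndufa1 at 0.73, Ndufa13 at 0.71, Ndufb9 at 0.68, Ndufa2 at 0.68 and Ndufb10 at 0.62. A slope of 1 would mean that reads did not change with depth. Ndufs1, at 0.03, and Ndufb2, at -0.05, had the lowest slopes there.

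**Figure D3:**
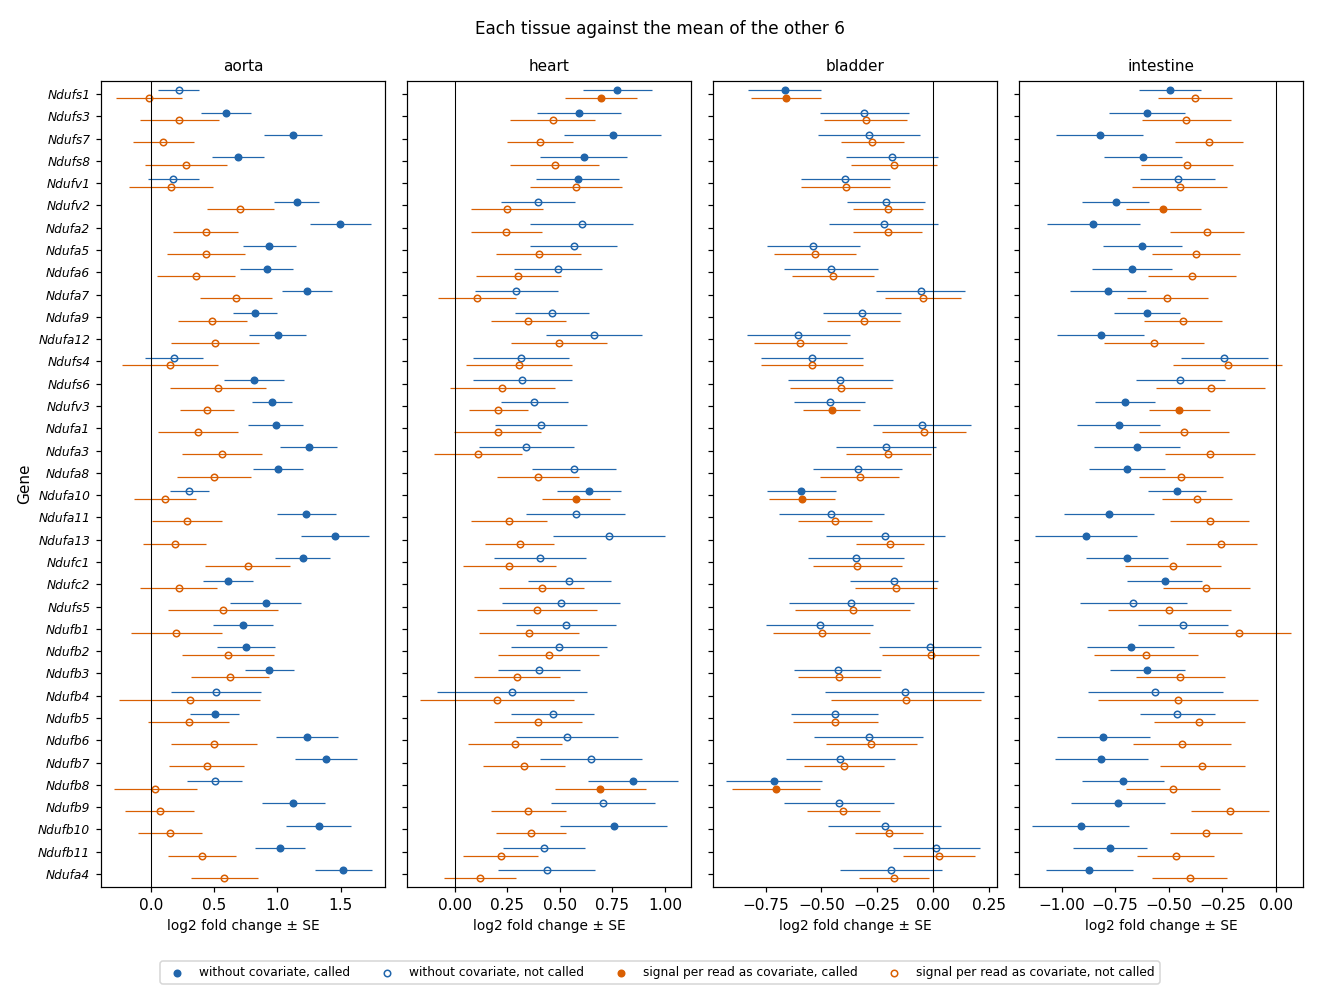
Log2 fold changes of 36 of the 37 genes (rows) in aorta, heart, bladder and intestine against the mean of the other 6 tissues, without (blue) and with (orange) signal per read as a covariate; bars are standard errors and filled points passed an adjusted p of 0.05. Of those shown, 30 blue points and 0 orange ones are filled in aorta, 29 and 2 in intestine, and in bladder the points of Ndufs1, Ndufa10 and Ndufb8 are filled in both fits.

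In heart 9 of 37 genes were higher, against 6.03% of all genes: 6 core subunits, among them Ndufs1, Ndufs3, Ndufs7, Ndufs8 and Ndufv1, with Ndufa10, Ndufb8 and Ndufb10. This count depended on single libraries: leaving out 1 library in turn gave 1 to 19 calls, and 15 of the 22 fits moved it by over 1.5 times. Heart 3, the one heart library of low depth, was above the mean of heart 1 and heart 2 for 33 of 37 genes, with a median ratio of 1.41 and a highest ratio of 3.03, for Ndufa13. The like share of all genes is not given. Without heart 3 only Ndufa10 was called, against 3.58% of all genes. Without heart 2 the count was 19, against 1019 of 16835 genes called higher. Without the aorta libraries 34 of 37 were called, against 11.5% of all genes, and without the aorta libraries and heart 3 the count was 10, against 8.74%. With signal per read as a covariate 3 were called, Ndufs1 at 0.69 ± 0.17 (SE, adjusted p = 0.0118), Ndufb8 at 0.69 ± 0.22 (SE, adjusted p = 0.0407) and Ndufa10 at 0.58 ± 0.16 (SE, adjusted p = 0.0237), against 5.44% of all genes.

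In bladder Ndufs1, Ndufa10 and Ndufb8 were lower, 3 of 37 against 7.4% of all genes, and with the covariate Ndufv3 joined them, at -0.45 ± 0.13 (SE, adjusted p = 0.0179), 4 of 37 against 9.04%. With the covariate their fold changes were -0.66 ± 0.16 (SE, adjusted p = 0.00603) for Ndufs1, -0.59 ± 0.15 (SE, adjusted p = 0.00870) for Ndufa10 and -0.71 ± 0.20 (SE, adjusted p = 0.0169) for Ndufb8. Leaving out bladder 1, the lowest bladder library for 35 of 37 genes, left 1 call, against 1214 of 16813 genes called lower. Urothelium markers summed to 242 to 4793 in bladder, and their part was not tested. In lung 1 of 37 was higher, Ndufv3, against 4.43% of all genes, and in stomach 1 was lower, again Ndufv3, against 6.93%. Median-of-ratios scaling and a replicate block each left 0 calls in both tissues, and edgeR left 0 in lung. In kidney 0 of 37 were called by limma, 3 at an unadjusted p under 0.05, against 10.5% of all genes called. By edgeR 0 of 37 were called, against 2207 of 16917 genes.

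Libraries of different tissues in which 1 read is worth nearly the same can be set side by side as reads. In kidney 2, lung 2 and stomach 1, at 0.660 to 0.665, the 37 genes summed to 33469, 33223 and 32192 reads, and the median ratio was 0.98 for kidney 2 over lung 2 and 1.049 for lung 2 over stomach 1. Ndufv3 stood out with 1514, 1820 and 992 reads, and Ndufb8 with 927, 826 and 531. In kidney 1, stomach 3 and intestine 1, at 0.456 to 0.474, the sums were 35693, 36929 and 30279, and 35 of 37 genes had more reads in stomach 3 than in intestine 1, with a median ratio of 1.20 where all tested genes had 1.03. In heart 2, lung 3 and bladder 1, at 0.765 to 0.777, the sums were 32078, 30212 and 17741. All 37 genes had more reads in heart 2 than in bladder 1 and 36 had more in lung 3, the exception being Ndufb2, with median ratios of 1.87 and 1.84 where all tested genes had 1.00 and 0.99. Each of these sets has 1 library per tissue and so no test.

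Setting each gene against the median of the 37 in the same library takes out what shifts the whole set equally. The SD of log2 signal over the 22 libraries had a median of 0.54, and of this relative level 0.20, smaller for 36 of 37 genes. Ndufs4 and Ndufs1 had the largest ranges of tissue means. Ndufs1 stood above the median gene by 1.74 ± 0.09 (SD, log2) in stomach, 1.61 ± 0.29 in kidney, 1.41 ± 0.11 in heart and 1.37 ± 0.20 in intestine, but by 1.00 ± 0.53 in bladder, 0.88 ± 0.19 in lung and 0.71 ± 0.44 in aorta. Ndufv3 was at 1.13 ± 0.08 in lung against 0.59 ± 0.18 in stomach and 0.62 ± 0.07 in heart. Ndufb8 was at 0.08 ± 0.29 in kidney, -0.01 ± 0.10 in lung and -0.02 ± 0.18 in heart, and between -0.54 and -0.32 in the other 4 tissues. Ndufa10 ran from 0.49 ± 0.14 in aorta to 1.30 ± 0.08 in stomach. Ndufs4 was at 0.23 ± 0.07 in stomach and 0.05 ± 0.08 in intestine and below the median gene in the other 5. A level of this kind shows unequal change within the set and not which gene moved. It can also still move with signal per read, as the slopes on it differ between genes. Over the 18 deeper libraries the slope was 0.03 for Ndufs1, 0.08 for Ndufs4, 0.11 for Ndufb8, 0.18 for Ndufv3 and 0.30 for Ndufa10. The median of the 37 was 0.54. The part of signal per read in these levels was not tested. The tissue levels are means over 3 libraries, or 4 in intestine, and were not tested.

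**Figure D4:**
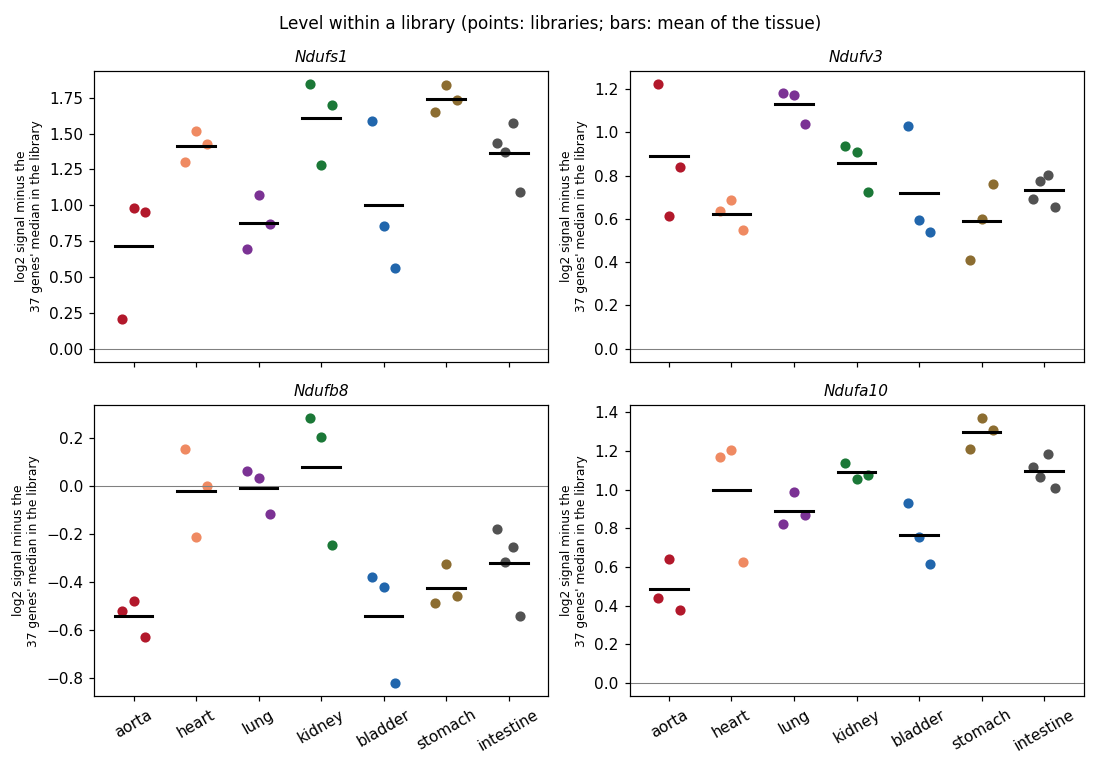
Log2 signal of Ndufs1, Ndufv3, Ndufb8 and Ndufa10 minus the median of the 37 genes in the same library, by tissue; points are libraries and bars are means of the tissue. Ndufv3 is highest in lung at 1.13, Ndufs1 and Ndufa10 are highest in stomach at 1.74 and 1.30, and Ndufb8 lies near 0 in heart, lung and kidney.

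The other genes of the respiratory chain were counted in the same contrasts. Of 34 nuclear genes for complexes III and IV and ATP synthase, 30 were higher and 1 lower in aorta, with a median of 1.15, and 28 were lower in intestine, with a median of -0.73. Of the 34, 31 reached 0.5 reads per base. The one called lower in aorta was Atp5l, with signal of 9, 0 and 0 there and 33, 36 and 36 in stomach. Cox6a1, a complex IV subunit, was higher in aorta by 1.87 ± 0.32 (SE) and lower in intestine, at -1.04 ± 0.28. Of the 8 complex II genes, 3 were higher and 1 lower in aorta and 4 lower in intestine, and Sdhb, its iron-sulfur subunit, was at 1.13 ± 0.20 in aorta and -0.78 ± 0.18 in intestine. Of the 17 complex I assembly factors, which build the enzyme but are not part of it, 0 were higher and 3 lower in aorta, where 42.8% of all genes were called lower, with a median of -0.21, and 1 was lower in intestine, Tmem126b, at -0.60 ± 0.20. Only 5 of these 17 reached 0.5 reads per base. Timmdc1 and Tmem186, which act in building the membrane arm, are 2 of those 3. Timmdc1 had signal of 0, 4 and 92 in aorta and Tmem186 94, 0 and 218, so that in both genes aorta 3 was high and the call rests on libraries at or near 0, where a fold is set by the pseudocount and the depth.

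Genes outside the chain were also called. Of 17 glycolysis genes, 10 were higher and 1 lower in aorta, and 10 lower in intestine, and Aldoa was at 1.98 ± 0.32 in aorta and -1.15 ± 0.29 in intestine. Of 73 tested cytosolic ribosome genes, 29 were higher in aorta and 15 lower in intestine, with 0 in the other direction. Of 48 large mitochondrial ribosome genes, 11 were higher and 2 lower in aorta and 3 lower in intestine. Of 13 genes of mitochondrial mass, 2 were higher and 3 lower in aorta and 4 lower in intestine. Of 13 regulators of mitochondrial genes, 8 were lower and 0 higher in aorta, against the 42.8% of all genes called lower there. The coactivators Ppargc1b and Pprc1 had signal of 0, 0 and 145 and of 0, 36 and 201 in aorta, and no fold is given over these libraries at 0. For these lists the background is that of all genes, 9.15% called higher and 42.8% lower in aorta and 9.97% called lower in intestine.

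Near-identical copies could draw reads from some members. Aligned to annotated transcripts, 7 of the 37 principal transcripts matched another gene at 95% identity or more over at least 250 bases. They included Ndufb4 and Ndufs5, 2 of the lowest genes for their length. Ndufb4 matched Ndufb4c over 390 of its 971 bases with no mismatch, and Ndufb4c had 0 to 5 reads. Ndufs5 matched Ndufs5-ps over 319 of 680 bases at 99.4%, and that pseudogene had 1 read in heart 3 and 144 in stomach 3, close to the 155 of Ndufs5 itself there. Ndufa12 matched Ndufa12-ps over 402 of 1110 bases at 99.5%, with 0 to 131 reads. The other 4, Ndufb3, Ndufb11, Ndufs3 and Ndufs6, had copies with at most 11 reads. The values of these 7 genes are uncertain to that extent.

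Promoter letters were compared with those of all genes. RefSeq windows of 300 bases on GRCm38.p6, from 250 before to 50 after the annotated start, were found for 33 of the 37 genes, as 35 windows, and 4 motifs of factors known to act on respiratory chain genes were searched on both strands. ATGGCGGC, a core of YY1 sites, lay in 20.0% of the members' windows, 7 of 35, and in 2.24% of all 32851. These 7 windows belong to 6 genes, as 2 windows of Ndufa7 hold the same site. GCGCATGCG, for NRF1, lay in 5.71%, or 2 windows, against 1.75%. CCGGAAGT, for GABPA, lay in 2.86%, or 1 window, against 3.89%. GGGCGGG, for Sp factors, lay in 37.1%, or 13 windows, against 25.6%. The 6 genes with ATGGCGGC, all on the gene's strand, and the 2 with GCGCATGCG are shown as stretches of 30 bases, 5′ to 3′, with the match in capitals, so that the letters around each match can be read.
Ndufa7: tcgtgtccatgATGGCGGCgatctggcgga
Ndufa9: ttgtgggagaagATGGCGGCcgccgtccgc
Ndufb5: ccggtgtagccATGGCGGCcatgagcctgc
Ndufs4: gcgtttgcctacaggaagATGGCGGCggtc
Ndufs6: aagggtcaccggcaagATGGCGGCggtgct
Ndufs7: ccgaggccaagATGGCGGCgctggcgggtg
Ndufa11: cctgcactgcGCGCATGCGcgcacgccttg
Ndufa8: cggtaccatctGCGCATGCGtctccagcga
They lie at chr17:33824463-33824492 (Ndufa7), chr6:126849095-126849124 (Ndufa9), chr3:32737071-32737100 (Ndufb5), chr13:114388045-114388074 (Ndufs4), chr13:73328433-73328462 (Ndufs6), chr10:80249465-80249494 (Ndufs7), chr17:56717692-56717721 (Ndufa11) and chr2:36049328-36049357 (Ndufa8, shown on the strand opposite to the gene). In 5 of the 6 genes with ATGGCGGC, all but Ndufa7, its first 3 letters are an annotated start codon of the gene, 20 to 39 bases after the transcription start, so there the letters are also the beginning of the coding sequence. Of these 6 genes Ndufs7 was called in aorta, heart and intestine, and Ndufs4 in no contrast.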

How the data were processed

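Total RNA of sorted arterial smooth muscle cells was sequenced in 22 libraries of 7 tissues. The authors deposited 1 table of gene signal, whole numbers scaled per library and not raw counts, on mm39. Per the submitters' processing notes DESeq2 1.36.0, featureCounts 2.0.4, STAR 2.7.10a, Trimmomatic 0.39 and Picard 3.0.0 were used, with no role or order given. The deposited signal of a library falls on steps, and the step, the signal 1 read is worth, was found by a likelihood search. Reads were rebuilt as signal divided by the step. In all libraries at least 99.89% of values came out whole, which says little where the step is under 1. Tested on simulated data, the search found 30 of 30 steps away from 1 and 5 of 8 within 0.02 of 1, where bladder 2 lies.

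Genes that reached a signal of 10 in 3 or more libraries were fitted with limma 3.58.1 (trend, R 4.3.3) on log2(signal + 1), all 22 libraries in 1 fit, so a fold change is on that scale. It understates changes of low genes between deep libraries, and in the shallow libraries, where a gene can be at 0 while 1 read is worth up to 9.42, it can overstate falls. A tissue's contrast is its mean minus the mean of the other 6 tissue means. P-values were adjusted over all tested genes by Benjamini-Hochberg, with a threshold of 0.05. These contrasts share libraries. The rebuilt reads were tested with edgeR 4.0.16 as an alternative, and the design had assumed counts. Named genes were the core subunits, the 3 highest and 3 lowest per exonic kilobase, the 3 with the fewest reads per base and the largest called change in each contrast; other names were chosen after their values were seen. The members, lists and rules were chosen with earlier results of these data known. Replicate numbers were not used to pair the libraries in the main fit, and the labels do not say whether same-numbered libraries share an animal. The values of 1 gene are not reported here, though counts over the set include it.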

Additional observations from a re-analysis of the deposited data

Results flagged for a closer look

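In intestine, the one tissue with 4 libraries, 1 library stood apart from the other 3 for 21 of 38 genes tested by Dixon's criterion, and in all 21 it was intestine 4 and the value was high. Its signal was 358 for Ndufa11 against 263 to 269 in the other 3, 470 for Ndufa13 against 339 to 361 in the other 3 and 384 for Ndufa2 against 275 to 287 in the other 3. Intestine 4 had signal of 354 for Ndufa3 against 254 to 270 in the other 3, 347 for Ndufa5 against 243 to 258 in the other 3 and 383 for Ndufa6 against 281 to 291 in the other 3. The values were 465 for Ndufa7 against 336 to 345 in the other 3, 646 for Ndufa8 against 460 to 469 in the other 3 and 797 for Ndufa9 against 649 to 674 in the other 3. Its signal was 268 for Ndufb1 against 186 to 193 in the other 3, 617 for Ndufb10 against 449 to 468 in the other 3 and 463 for Ndufb11 against 341 to 356 in the other 3. Intestine 4 had signal of 340 for Ndufb3 against 249 to 255 in the other 3, 275 for Ndufb6 against 183 to 196 in the other 3 and 451 for Ndufb7 against 333 to 340 in the other 3. The values were 318 for Ndufc1 against 233 to 237 in the other 3, 527 for Ndufc2 against 366 to 381 in the other 3 and 383 for Ndufs6 against 264 to 276 in the other 3. Its signal was 681 for Ndufs7 against 508 to 530 in the other 3, 711 for Ndufs8 against 526 to 542 in the other 3 and 764 for Ndufv2 against 582 to 609 in the other 3. Chance gives such a gap in about 1 of 20 groups of 4, and these genes are not independent of each other. The 38 include Ndufa4l2 and Ndufab1, neither of them among the 21. The like share of all genes is not given, so the count does not set complex I genes apart from other genes. 1 read was worth 0.577 in intestine 4 and 0.422 to 0.474 in the other 3, and its part in these gaps was not tested.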

How the results depend on the processing

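The 37 called fold changes of the named genes kept their direction in all 1134 values under the alternatives, and 170 of these missed the threshold that the reported value passed. Most of the 1134 are leave-one-out fits, which share all but 1 library with the reported fit, and some genes were named for their large changes. A kept direction was thus likely beforehand. With signal per read as a covariate 30 of the 37 missed the threshold, and with array weights 15 did. Counts of called genes moved more. With signal per read as a covariate, added after the data were seen, 5 differed over 7 tissues, 15 over 6, 0 in aorta, 3 in heart, 0 in stomach and 2 in intestine. Among the 14 genes under 0.5 reads per base of the union of exons the counts were 12, 11, 10 in aorta, 3 in heart, 0 in lung, 0 in stomach and 9 in intestine. Fewer genes were tested there, and 548 of 13815 were called higher in heart. Most of the 14 were denser than that on the principal transcript. Array weights gave 6 in aorta, 3 in heart, 15 in stomach, of which 2 were higher, and all 37, as lower, in intestine. Of 16917 genes they called 377 higher in aorta and 1090 higher in heart. In stomach they called 6054 higher and 3406 lower, and in intestine 3617 lower. Median-of-ratios scaling gave 4 in heart, where 868 of 16917 genes were called higher. It gave 0 in lung and 0 in stomach, where 1265 and 3493 genes were called in either direction. It moved the median of the 37 in lung from 0.11 to -0.04. Without the filter heart had 5, against 973 of 28099 genes called higher. edgeR called 0 in lung, 1 at an unadjusted p under 0.05, against 1763 of 16917 genes called in either direction. Without the aorta libraries heart had 34, bladder 5 and stomach 0, and without heart 3 as well lung had 3 and bladder 5. Without the aorta libraries 2362 of 16703 genes were lower in bladder. Without heart 3 as well, 2710 of 16641 genes were higher in lung and 3403 lower in bladder. Where no value is given, the cause was not tested.

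Leaving out 1 library in turn gave 32 to 36 over 7 tissues, 24 to 35 over 6, 25 to 33 in aorta, 1 to 19 in heart, 0 to 1 in lung, 0 to 0 in kidney, 1 to 5 in bladder, 0 to 3 in stomach and 19 to 35 in intestine. Without intestine 1, 2 or 3 intestine had 19, where 1125 of 16860, 1110 of 16866 and 1089 of 16856 genes were called lower. Without bladder 1 bladder had 1, against 1214 of 16813 genes called lower. Without aorta 1 or aorta 3 bladder had 5, against 1661 of 16857 and 1438 of 16816 genes called lower. With a replicate block the counts were 34, 32, 31 in aorta, 6 in heart, 0 in lung, 0 in kidney, 2 in bladder, 0 in stomach and 28 in intestine. Of 16917 genes that fit called 9093 over 7 tissues, 1508 higher in aorta and 886 higher in heart. It called 1090 lower in bladder and 1320 lower in intestine, and over 6 tissues 9403 of 16703. In the check for pairing, correlations ran from -0.10 to 0.26 over 63 pairs of same-numbered libraries of different tissues. They ran from -0.29 to 0.22 over 144 different-numbered pairs. They serve only to compare these kinds of pair and do not measure how alike the tissues are. No pairing by number was seen, but these values cannot tell whether same-numbered libraries share an animal. The 4 libraries with under 2000000 reads limit low genes most.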
